A study of Mus musculus with 19 samples.

Results

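The cell cycle genes described here were 49 mouse genes, taken by symbol from the gene expression rows of a CITE-seq study of the thymus. They comprised 20 genes of S phase, 27 genes of G2 and mitosis (hereafter the G2/M genes) and the D-type cyclins Ccnd2 and Ccnd3, out of 28692 genes counted. CITE-seq reads the mRNA of single cells together with surface proteins tagged by barcoded antibodies. The study took thymocytes from 17 mice aged 4 to 8 weeks in 3 experiments, on 19 sequencing lanes, to compare cells bound for the CD4+ T cell lineage with cells bound for the CD8+ T cell lineage. Of the 5 B6 (WT) mice, 3 were sorted for CD5+TCRB+ thymocytes and 2 were unsorted, each of the latter on 2 lanes. CD4-fated mice were 2 AND and 2 OT-II mice, which carry transgenic T cell receptors (TCRs) specific for MHC class II, and 2 MHCI-/- (B2m-/-) mice. CD8-fated mice were 2 F5 and 2 OT-I mice, with transgenic TCRs specific for MHC class I, and 2 MHCII-/- (H2-Ab1-/-) mice. AND and F5 mice were also Rag1-/-, so that the transgene was their sole TCR, whereas the OT-I and OT-II mice could rearrange endogenous TCR genes. The TCR transgenic mice were unsorted, and the MHCI-/- and MHCII-/- mice, which have diverse TCRs, were sorted for CD5+TCRB+ cells. Sorting removes many cells that precede TCR expression, so the share of early cells in a whole thymus sum was set in part by the sort.

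Thymocytes divide in bursts. CD4- CD8- double-negative (DN) cells that have rearranged a TCR β-chain proliferate, pass through an immature CD8+ single-positive (ISP) stage and become large, dividing CD4+ CD8+ double-positive (DP) blasts. The blasts then leave the cycle and become small resting DP cells, which rearrange the TCR α-chain and wait for a selecting signal through the TCR. Signaled DP cells mature to CD4 or CD8 single-positive (SP) cells through a semimature stage (CD24 high, CD62L-) and a mature stage (CD24 low, CD62L+), and some CD4 SP cells become regulatory T cells. Entry into the cycle is driven by D-type cyclins bound to Cdk4 or Cdk6, which release E2F transcription factors from Rb proteins. E2F then switches on the genes of DNA replication. The DREAM and B-Myb-MuvB complexes act through CHR elements in the promoters of genes for mitosis, where CCAAT elements are also common.

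The sequences below are the 200 bases that precede the RefSeq start of transcription (GRCm38.p6, 5′ to 3′ on the strand of the gene) of Mki67, Top2a and Ccnb2, as examples of G2/M genes, and of Mcm5 and Mcm6, as examples of S-phase genes. Capitals mark matches, on either strand, to the CHR letters TTTGAA or TTCGAA, to CCAAT, and to the E2F letters TTTCCCGC, TTTCGCGC, TTTGCCGC or TTTGGCGC, and adjoining capitals can belong to overlapping matches. Mki67 lies at chr7:135716380-135716579 (minus strand), Top2a at chr11:99024190-99024389 (minus), Ccnb2 at chr9:70421555-70421754 (minus), Mcm5 at chr8:75109309-75109508 (plus) and Mcm6 at chr1:128359706-128359905 (minus).
Mki67: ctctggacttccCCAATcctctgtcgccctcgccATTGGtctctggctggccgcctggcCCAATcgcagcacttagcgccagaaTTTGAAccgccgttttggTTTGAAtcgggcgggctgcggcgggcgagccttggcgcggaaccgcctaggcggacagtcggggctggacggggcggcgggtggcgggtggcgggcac
Top2a: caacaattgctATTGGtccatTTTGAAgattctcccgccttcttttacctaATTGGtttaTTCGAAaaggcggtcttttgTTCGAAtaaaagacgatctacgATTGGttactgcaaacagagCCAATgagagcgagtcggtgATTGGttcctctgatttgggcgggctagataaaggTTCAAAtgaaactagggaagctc
Ccnb2: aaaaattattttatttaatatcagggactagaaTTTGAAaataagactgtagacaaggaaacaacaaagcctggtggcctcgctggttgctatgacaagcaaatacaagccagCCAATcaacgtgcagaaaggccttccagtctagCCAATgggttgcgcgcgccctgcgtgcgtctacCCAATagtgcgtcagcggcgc
Mcm5: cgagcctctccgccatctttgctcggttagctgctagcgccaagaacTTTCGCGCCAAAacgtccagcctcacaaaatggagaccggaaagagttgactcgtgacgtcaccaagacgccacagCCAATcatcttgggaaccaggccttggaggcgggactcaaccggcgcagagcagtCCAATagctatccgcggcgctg
Mcm6: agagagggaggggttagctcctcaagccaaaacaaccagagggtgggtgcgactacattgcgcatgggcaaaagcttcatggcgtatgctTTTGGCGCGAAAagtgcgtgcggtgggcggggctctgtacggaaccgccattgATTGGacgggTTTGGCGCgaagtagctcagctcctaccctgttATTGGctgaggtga

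Mki67, Top2a and Ccnb2 hold CHR and CCAAT letters and no E2F letters in these stretches, whereas Mcm5 and Mcm6 hold E2F and CCAAT letters and no CHR letters. In windows of 300 bases (250 before to 50 after the start), RefSeq gave 23 windows for 23 of the 27 G2/M genes and 20 windows for 17 of the 20 S-phase genes. CHR letters were in 73.9% of the G2/M windows, 15% of the S-phase windows and 19.2% of all 32851 promoter windows. CCAAT was in 87.0%, 55% and 37.4% of them, and both CHR and CCAAT in 73.9%, 10.0% and 7.52%. E2F letters ran the other way, at 4.35% of the G2/M windows, 40.0% of the S-phase windows and 2.26% of all windows. These are matches of letters, not measured binding. The lists of S-phase and G2/M genes are therefore given separately in the expression data.

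Lanes held 9893333 to 43303999 RNA unique molecular identifiers (UMIs), and the median cell of a lane held 1497 to 7185 UMIs. Of 85389 barcodes, 72054 passed the filters stated by the study and 69204 remained after 2850 called doublets were removed; no pair of lanes shared more than 16 barcodes. After thinning to 1000 UMIs, at least 2 UMIs of the G2/M list were found in 45.6% of 637 cells that the upper limit on antibody UMIs removed (of 852 removed, those not also called doublets), in 34.4% of called doublets and in 29.9% of the cells kept. Cells were assigned to stages by antibody counts alone, and UMIs were summed per mouse and gate where a mouse had at least 30 cells, giving 3268 DN, 995 ISP, 3065 DP blast, 22347 small DP and 10797 signaled DP cells, and 4631 semimature CD4, 3718 mature CD4, 1080 semimature CD8 and 2152 mature CD8 SP cells. DP blasts were gated on CD71, the transferrin receptor, which dividing cells carry, so the blast gate uses a protein that moves with the cycle. Small DP cells were gated as TCRB low, CD69- and CD71-, so cells with that protein were left out of them. The DN and signaled DP gates did not use CD71. Blast and signaled gates shared 134 cells. RNA markers went with the antibodies in the CD25+ GITR+ and CD4 SP gates. Foxp3, the regulatory T cell factor, was at 218 to 342 CPM (the UMIs of a gene scaled to a common library total) in the CD25+ GITR+ gate and at 0 to 7.25 CPM in other CD4 SP cells. The summed CD4 SP markers had medians of 446 and 358 CPM in the CD4 SP gates and 14.8 and 22.6 CPM in the CD8 SP gates. The DN gate was mixed, with a median of 502 CPM for the DN markers and 684 CPM for the gamma-delta T cell markers. WT replicate 5 stood apart by its low depth (median 1523 UMIs per cell). AND replicate 2 had few antibody UMIs, on which the gates rest. Its median was 1100 per cell used, near the lower limit of 1000, and the next lowest lane had 2588. Of its 4320 cells that passed the RNA filters, 1901 passed all filters. In OT-II replicate 1 the erythrocyte markers summed to 7612 CPM in the DP blast gate. In summed counts, fewer cells in cycle and less RNA per cell cannot be told apart.

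Every G2/M gene had its highest median in the DP blast gate. All 27 G2/M genes and 15 of the 20 S-phase genes were highest there, over 9 gates from DN to mature SP, and the other 5 S-phase genes (Ccne2, Mcm2, Mcm4, Mcm6 and Hells) were highest at the preceding ISP stage. The summed G2/M list had a median of 3765 CPM in DN cells, 6709.7 in ISP cells and 11626 in DP blasts. It stood at 4934 CPM in small DP cells and 989 in signaled DP cells. The small DP sums ran from 1806 CPM (F5 replicate 1) to 11731 CPM (WT replicate 3, with 14039 CPM in its blasts). The small DP gate, the reference for the DN, blast and signaled comparisons, thus still held G2/M RNA, in amounts that differed between mice. CD71+ cells had been left out of this reference, but not out of the DN and signaled gates. The part of that choice in the differences was not tested. The summed S-phase list went from 2879 CPM in DN cells and 4389 in ISP cells to 4982 in blasts, 1578 in small DP cells and 606 in signaled DP cells. In semimature and mature CD4 SP cells the S-phase list had medians of 684 and 629 CPM and the G2/M list 976 and 1116. In semimature and mature CD8 SP cells the corresponding medians were 1748 and 1291 CPM for S phase and 1841 and 1634 for G2/M. The heat map of the members by gate shows the shared peak at the ISP and blast stages, and the plot of summed lists shows how far the mice of a gate spread.

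**Figure D1:**
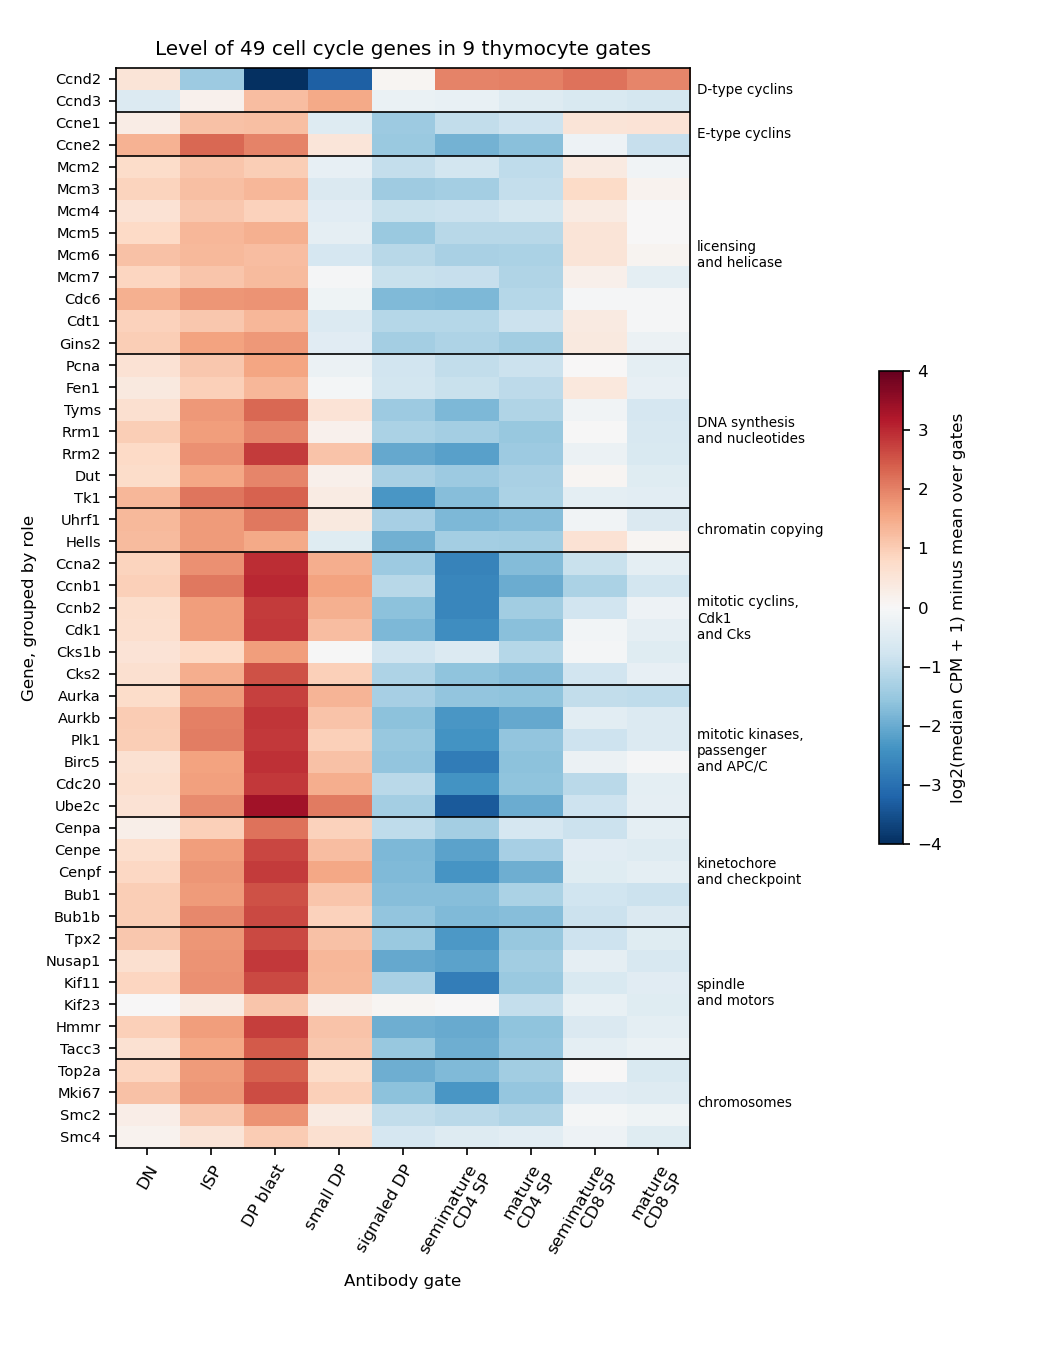
Heat map of the 49 cell cycle genes (rows, by role) in 9 antibody gates (columns, in order of development); colour is the log2 of the median CPM over mice plus 1, minus the mean of the gene over the gates. All 27 G2/M genes peak in the DP blast column, and Ccne2, Mcm2, Mcm4, Mcm6 and Hells peak in the ISP column. Ccnd2 is lowest in the DP blast column and highest in the semimature CD8 SP column.

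**Figure D2:**
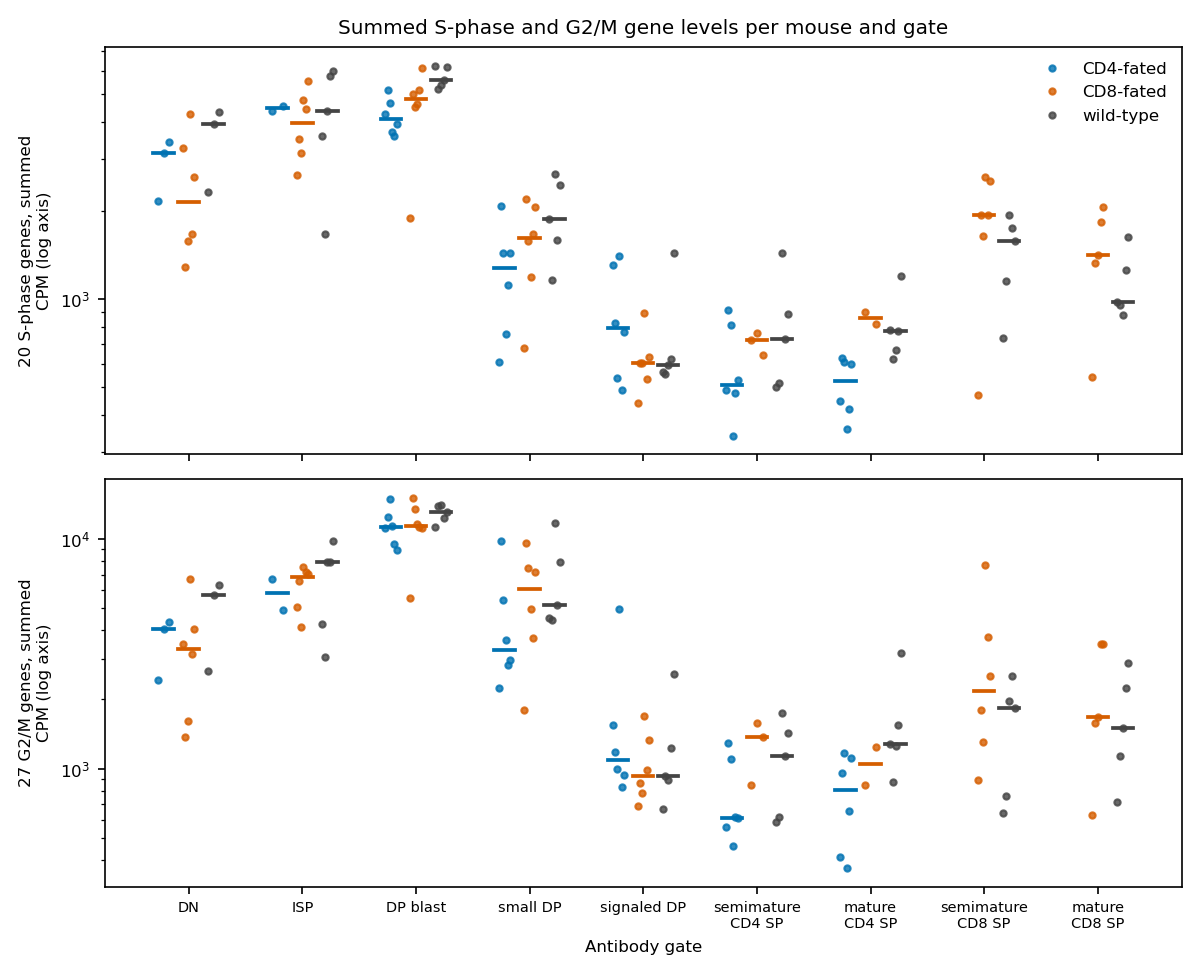
Summed CPM of the 20 S-phase genes and of the 27 G2/M genes, 1 panel each, with 1 point per mouse in each gate and the median as a bar. The DP blast gate has the highest medians (4982 CPM for S phase and 11626 for G2/M), and AND replicate 2 is the high point among signaled DP sums for G2/M (4949.9 CPM).

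In single cells, after each cell was thinned to 1000 UMIs, the median share of cells with at least 5 UMIs of the G2/M list was 15.2% in the DN gate, 36.4% in ISP cells and 70.9% in DP blasts. It was 7.90% in small DP cells, 1.31% in signaled DP cells, 2.41% in mature CD4 SP cells and 5.88% in mature CD8 SP cells. The blast and signaled gates held cells of unequal depth, with medians of 13442 and 3871 UMIs. Without thinning and at the lower bar of 2 UMIs, 94.2% of blasts and 61.2% of signaled DP cells passed, against 84.4% and 14.3% when thinned. Shares at 2 UMIs are not read here as cells in cycle. Thinning left out 986 wild-type, 165 CD4-fated and 136 CD8-fated cells with fewer than 1000 UMIs.

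Replication genes were higher in DN than in small DP cells, while nearly all genes of mitosis did not pass the test. The DN gate, as given above, was mixed and also held gamma-delta T cell markers. It also mixed sorted and unsorted mice. WT replicate 3 and MHCII-/- replicates 1 and 2 were sorted for CD5+TCRB+ cells, and the others were unsorted. The G2/M sums of these sorted mice were 2652, 1374 and 1619 CPM. Those of unsorted mice ran from 2430 (AND replicate 1) to 6720 CPM (F5 replicate 2). The part of the sort in the DN differences was not tested. Of the 49 members, 19 were higher and 2 lower in the DN gate (edgeR quasi-likelihood test with mouse as a block, Benjamini-Hochberg adjusted p under 0.05, 12 mice), where 55.9% of all 9538 genes tested were called and 27.3% were higher. The S-phase list had 17 of 20 genes higher and none lower, with a median log2 fold change of 1.07 against -0.03 over all genes. The G2/M list had 1 of 27 higher (Cks1b) and 1 lower (Smc4), with a median of -0.17. All 9 genes of licensing and helicase were higher (median 1.46), as were Uhrf1 and Hells, while 5 of 7 genes of DNA synthesis were. Without TMM scaling the median of all genes moved by -0.19 on the log2 scale, and the share of called genes that were higher went from 48.8% to 34.3%; fold changes are relative to that shift.

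Mcm6, a subunit of the replicative helicase, was at 145 to 462 CPM (median 287) in DN cells and at 27 to 170.2 CPM (median 87.3) in small DP cells. It was higher in the DN gate of all 12 mice, a 3.52-fold difference (log2 fold change 1.81 ± 0.17, adjusted p = 5.54e-07, edgeR), although the ranges overlapped. Hells, a chromatin remodeller that acts on DNA methylation, was at 47.1 to 247 CPM (median 133) against 3.86 to 95.3 CPM (median 41.0) and was also higher in 12 of 12 mice (log2 fold change 1.75 ± 0.25, adjusted p = 3.35e-05). Among the other S-phase genes, the helicase subunit Mcm7 gave 0.96 ± 0.18 (adjusted p = 2.84e-04), the dUTPase gene Dut 0.94 ± 0.30 (0.0158), the sliding clamp Pcna 0.82 ± 0.23 (0.00700), Uhrf1, which finds hemimethylated DNA, 0.84 ± 0.34 (0.0477) and the cyclin Ccne2 0.73 ± 0.30 (0.0470). Pcna, Dut, Uhrf1 and Ccne2 were each higher in 8 of 12 mice, so that 4 mice went against the fitted direction.

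Mki67, a protein that coats mitotic chromosomes and the usual marker of cycling cells, was at 47.1 to 625 CPM (median 286) in DN and 50.2 to 706 CPM (median 311) in small DP cells, with 6 mice higher and 6 lower (log2 fold change 0.04 ± 0.42, adjusted p = 0.952). Top2a, the topoisomerase that untangles sister chromatids, split the mice in the same way (log2 fold change -0.17 ± 0.45, adjusted p = 0.783). Cenpf, a kinetochore protein, gave -0.71 ± 0.48 (adjusted p = 0.221), the spindle protein Nusap1 -0.62 ± 0.44 (0.25), Ube2c, an enzyme of the anaphase-promoting complex, -0.67 ± 0.55 (0.321) and the Cdk-binding protein Cks2 0.18 ± 0.35 (0.685). Their standard errors, of 0.35 to 0.55, exceed that of Mcm6 (0.17). Smc4, a condensin subunit, was at 282 to 909 CPM (median 509) against 448 to 1335 CPM (median 744) and was lower in 12 of 12 mice (log2 fold change -0.42 ± 0.08, adjusted p = 6.69e-04). With the 3 wild-type mice alone 13 of 49 members were called, 11 of them S-phase genes and none in G2/M, where 32.8% of all genes were called. Among these mice WT replicate 3 was sorted and the others were unsorted.

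In DP blasts all genes of both lists were higher. Of the 49 members, 47 were higher and 1 lower than in small DP cells of the same 17 mice, where 76.6% of 8788 genes tested were called and 34.5% were higher. All 20 S-phase genes (median log2 fold change 1.83) and all 27 G2/M genes (median 1.52) were higher, against a median of -0.07 over all genes. The fold changes lay between 1.46 and 2.27 for S phase and between 0.48 and 1.72 for G2/M. Without TMM scaling the median of all genes moved by -0.24 and the share of higher genes among those called went from 45.0% to 32.6%.

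Hells had the largest fitted change among the members, at 50.6 to 363 CPM (median 158) in blasts and 3.86 to 95.3 CPM (median 38.8) in small DP cells, and was higher in 17 of 17 mice (log2 fold change 2.27 ± 0.08, adjusted p = 1.30e-17). Cdc6, which loads the helicase onto origins, was at 21.4 to 83.8 CPM (median 48.6) against 2.12 to 29.5 CPM (median 11.5) (log2 fold change 2.19 ± 0.13, adjusted p = 1.69e-13). Gins2, a subunit of the GINS complex of the active helicase, was at 29.2 to 91.8 CPM (median 67.2) against 3.19 to 32.1 CPM (median 14) (log2 fold change 2.07 ± 0.12, adjusted p = 7.03e-14). The ranges overlapped for these genes, but not for Mcm2, Mcm3 and Mcm5, whose lowest blast sum lay above the highest small DP sum, as it did for 0.307% of all genes tested. Mcm5 ran from 90.5 to 290.2 CPM in blasts and from 26.5 to 86.4 CPM in small DP cells (log2 fold change 2.01 ± 0.06, adjusted p = 7.56e-18).

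Mki67 was at 253 to 1289 CPM (median 781) in blasts and 50.2 to 706 CPM (median 248) in small DP cells, 3.13-fold higher by the fit (log2 fold change 1.65 ± 0.13, adjusted p = 3.35e-11). Top2a was at 412 to 3602 CPM (median 1357) against 63.9 to 2117 CPM (median 445) (log2 fold change 1.58 ± 0.15, adjusted p = 4.18e-10). Both were higher in 17 of 17 mice. Pcna, which has 1 named pseudogene among the rows counted, was 3.4-fold higher (log2 fold change 1.76 ± 0.09, adjusted p = 3.80e-15), and the remaining leading genes of each role gave log2 fold changes of 1.47 ± 0.05 (Mcm7), 1.83 ± 0.13 (Ccne2), 1.88 ± 0.09 (Dut), 1.83 ± 0.09 (Uhrf1), 1.55 ± 0.13 (Cks2), 1.42 ± 0.15 (Ube2c), 1.39 ± 0.14 (Cenpf) and 1.52 ± 0.14 (Nusap1). Smc4 changed least among the G2/M genes (log2 fold change 0.48 ± 0.07, adjusted p = 4.31e-07, higher in 14 of 17 mice).

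In signaled DP cells nearly all members were lower, and the G2/M genes had the larger fitted changes. In the CD69+ gate 47 members were lower and 1 higher than in small DP cells of the same 17 mice, where 55.3% of 9353 genes tested were called and 28.5% were lower. All 20 S-phase genes were lower, with a median log2 fold change of -1.17, and 26 of 27 G2/M genes were, with a median of -2.82. The median over all genes was -0.01. The summed S-phase list was higher in signaled cells of both AND mice, at 1305 against 607 CPM (replicate 1) and 1402 against 760 CPM (replicate 2). It was lower in all other mice. Within the S-phase list the 9 licensing and helicase genes had a median of -0.70 and the 7 genes of DNA synthesis -1.46. Among the G2/M roles, medians ran from -2.07 (chromosomes) to -2.87 (kinetochore and checkpoint).

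Ube2c was at 3.24 to 553 CPM (median 39.7) in signaled and 66.1 to 1355 CPM (median 442) in small DP cells and was lower in 16 of 17 mice (log2 fold change -3.34 ± 0.31, adjusted p = 7.25e-09). Cenpf was at 8.87 to 195 CPM (median 21.9) against 32.4 to 579 CPM (median 226) (log2 fold change -3.27 ± 0.28, adjusted p = 2.07e-09). Hmmr, a spindle-associated hyaluronan receptor, was at 0 to 86.5 CPM (median 7.06) against 12.1 to 201 CPM (median 66.9) (log2 fold change -3.16 ± 0.33, adjusted p = 2.83e-08). In each of the 3 genes AND replicate 2, the mouse with few antibody UMIs, held the highest signaled sum and went the other way. Mki67 (log2 fold change -2.85 ± 0.31, adjusted p = 6.27e-08) and Top2a (log2 fold change -2.85 ± 0.32, adjusted p = 7.82e-08) were lower in 16 of 17 mice. With Mki67 at 0 to 207 CPM (median 39.9) in signaled cells and 50.2 to 706 CPM (median 248) in small DP cells, the ranges overlapped.

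The fitted changes of the licensing genes were smaller. Mcm4 changed by -0.26 ± 0.11 (adjusted p = 0.0408, lower in 13 of 17 mice), Mcm2 by -0.44 ± 0.10, Mcm6 by -0.45 ± 0.12 and Pcna by -0.61 ± 0.14 (adjusted p = 8.01e-04). Pcna was at 37.0 to 129 CPM (median 70.7) in signaled cells against 50.2 to 212 CPM (median 104). Mcm7 gave -0.70 ± 0.10, Dut -1.26 ± 0.20, Uhrf1 -1.52 ± 0.19, Ccne2 -2.06 ± 0.31, Cks2 -2.28 ± 0.25, Nusap1 -3.08 ± 0.32 and Smc4 -1.07 ± 0.11, each called lower. Kif23, a motor of the central spindle that acts in cytokinesis, was the G2/M gene that did not pass the test (log2 fold change -0.19 ± 0.14, adjusted p = 0.269), with 6 mice higher and 11 lower. With wild-type mice only it was called lower too (-0.42 ± 0.11, adjusted p = 0.0119). In the plot of fold changes the medians of the lists differ in this panel, while their ranges overlap (-2.65 to -0.26 for S phase and -3.34 to -0.19 for G2/M).

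**Figure D3:**
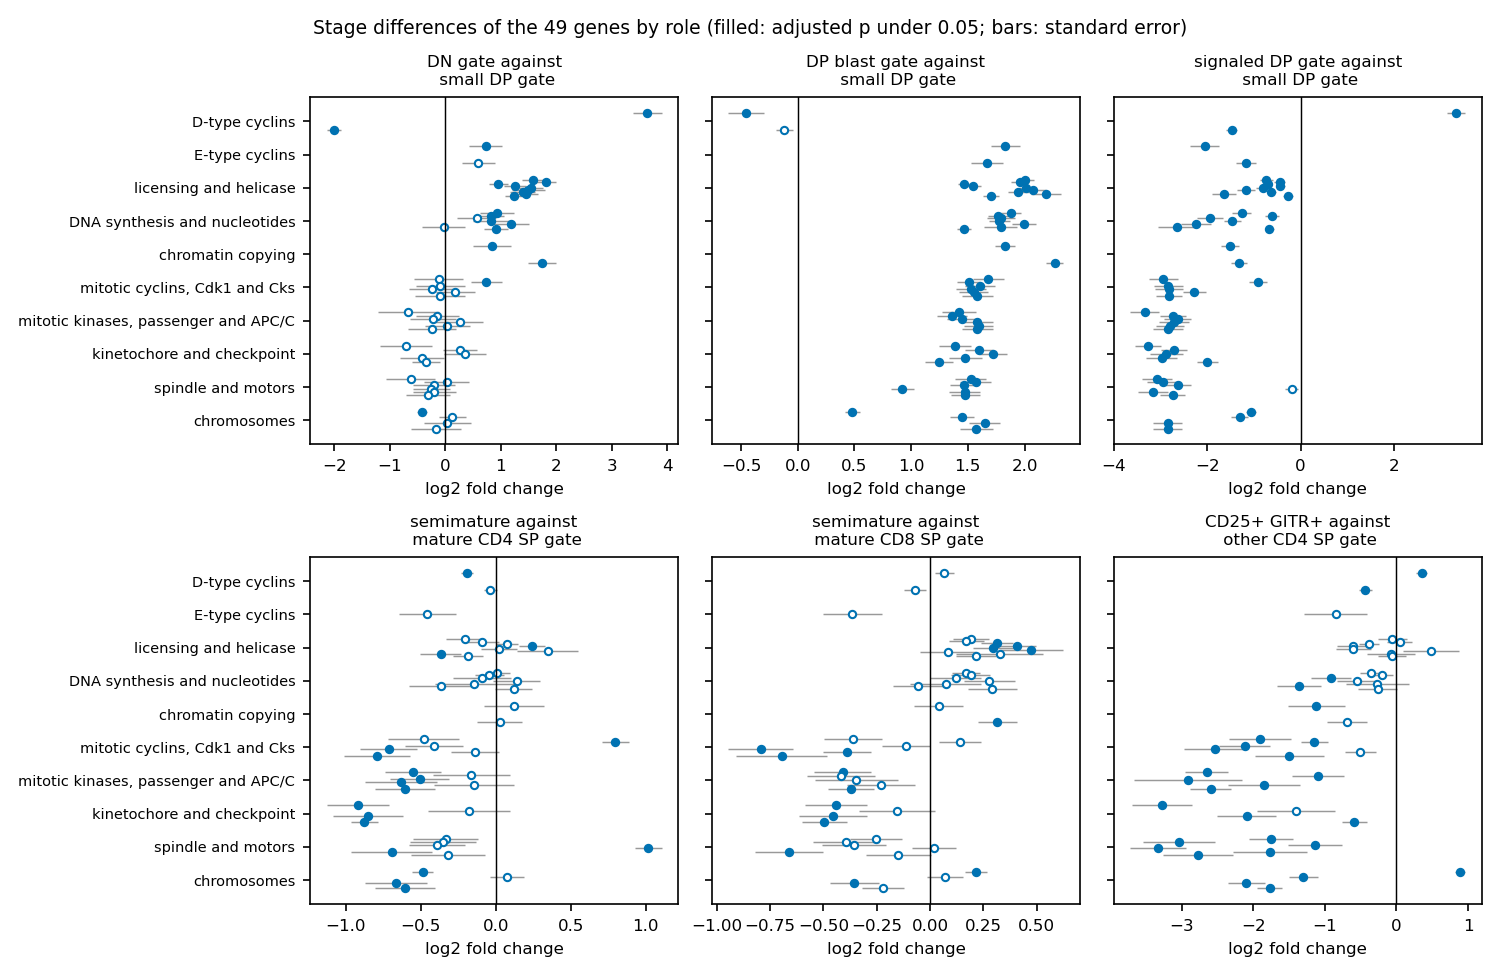
Log2 fold change of each member (points, grouped by role; bars are the standard error of the edgeR fit; filled points have an adjusted p under 0.05) in 6 comparisons of stages, 1 panel each. In DN cells 19 of 20 S-phase genes lie above 0 and G2/M genes lie on both sides of it, in DP blasts all 47 S-phase and G2/M genes lie above 0, and in signaled DP cells the median of the G2/M genes (-2.82) lies below that of the S-phase genes (-1.17), with overlapping ranges.

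The D-type cyclins moved apart from the other members and from each other. Ccnd2 had medians of 245 CPM in DN, 61.6 in ISP, 9.74 in blast, 16.7 in small DP and 178 in signaled DP cells. In SP cells they were 670.0 (semimature CD4), 695 (mature CD4), 769.6 (semimature CD8) and 665 CPM (mature CD8). Ccnd2 was thus lowest in the DP blast gate, where the genes of S phase and mitosis were at or near their peak, and the ranges of the 4 SP gates overlapped. Ccnd3 had its highest median in small DP cells (1162 CPM) and stood at 272 in DN, 457 in ISP, 944 in blast and 332 CPM in signaled DP cells. In SP gates its medians lay between 245 CPM (mature CD8) and 328 CPM (semimature CD4). Both genes overlap genes on the opposite strand (Gm43126 and 9330179D12Rik for Ccnd2, Bysl for Ccnd3).

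In DN cells Ccnd2 was higher than in small DP cells in 12 of 12 mice, at 63.0 to 675 CPM (median 245) against 4.45 to 70.1 CPM (median 21.8) (log2 fold change 3.64 ± 0.26, adjusted p = 3.06e-08, edgeR). Ccnd3 was lower in 12 of 12 mice without overlap of the ranges, as were 2.36% of all genes, at 173 to 329 CPM (median 272) against 718 to 1531 CPM (median 1196) (log2 fold change -2.01 ± 0.13, adjusted p = 1.27e-08). Ccnd2 was a little lower in blasts than in small DP cells, in 14 of 17 mice (log2 fold change -0.45 ± 0.16, adjusted p = 0.0112), and Ccnd3 was not called there (log2 fold change -0.12 ± 0.07, adjusted p = 0.152). With wild-type mice only the Ccnd2 call was lost (-0.15 ± 0.20, adjusted p = 0.540), as it was with gates 0.3 log2 units lower (-0.23). Between small and signaled DP cells they crossed over. Ccnd2 was higher in 17 of 17 signaled sums, at 26.8 to 671 CPM (median 178) against 4.45 to 70.1 CPM (median 16.7), a 10.1-fold difference (log2 fold change 3.33 ± 0.20, adjusted p = 2.17e-11). Ccnd3 was lower in 17 of 17, at 259 to 931 CPM (median 332) against 718 to 1531 CPM (median 1162) (log2 fold change -1.47 ± 0.12, adjusted p = 7.59e-10).

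**Figure D4:**
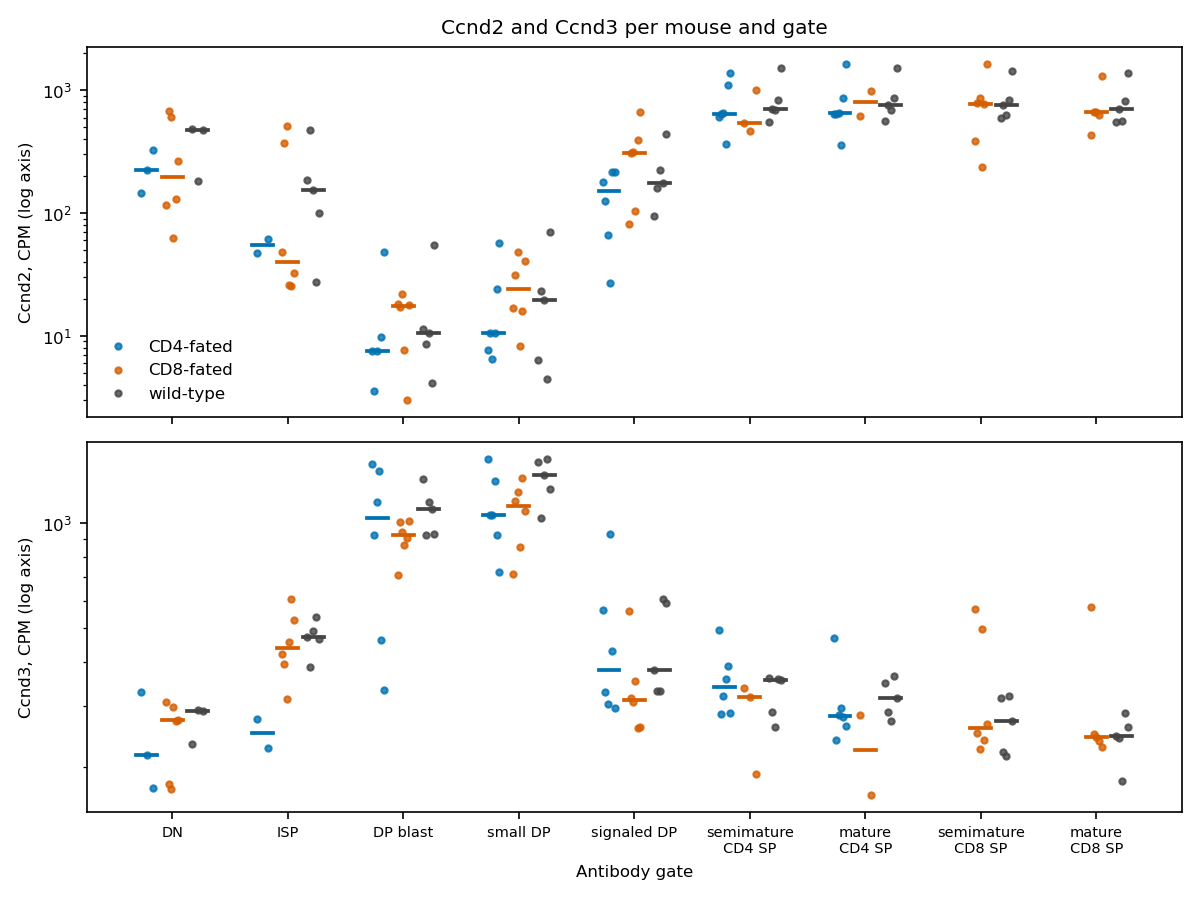
Ccnd2 and Ccnd3 in CPM by antibody gate, with 1 point per mouse and the median as a bar. The Ccnd2 median falls from 245 CPM in DN cells to 9.74 in blasts and stands at 178 in signaled DP cells, while the Ccnd3 median is highest in small DP cells (1162 CPM).

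Between semimature and mature SP cells, more G2/M genes were called lower than higher in the semimature gates. The summed G2/M list did not follow evenly. Its medians were 976 (semimature) and 1116 CPM (mature) in CD4 SP cells. In CD8 SP cells they lay the other way, at 1841 and 1634 CPM. Single mice went both ways, as in CD4 SP cells of WT replicate 5 (1434 against 3171 CPM) and OT-I replicate 1 (1574 against 852). Of the S-phase genes 2 of 18 were called in CD4 SP cells, 1 each way, and 5 of 19 in CD8 SP cells, all higher. Of 46 members tested, 3 were higher and 15 lower in semimature than in mature CD4 SP cells of 13 mice, where 37.8% of 8562 genes were called and 19.2% were lower. The S-phase list had 1 of 18 tested genes higher (Mcm2) and 1 lower (Cdt1), with a median log2 fold change of -0.02. The G2/M list had 2 of 26 higher (Kif23 and Cks1b) and 13 lower, with a median of -0.48 against 0.02 over all genes. In CD8 SP cells of 10 mice, 6 of 46 members were higher and 10 lower in the semimature gate, where 21.1% of 6594 genes were called, 9.58% higher and 11.5% lower. There the S-phase list had 5 of 19 higher and none lower (median 0.19), and the G2/M list 1 of 25 higher (Smc4) and 10 lower (median -0.36). The counts depended on the scaling. Without TMM the median of all genes moved by 0.19 (CD4) and 0.13 (CD8) and the share of higher genes among those called from 49.3% to 81.6% and from 45.5% to 76.7%. The G2/M calls then became 2 higher and 7 lower (CD4) and 2 higher and 4 lower (CD8), and those of S phase 4 and 12 higher with none lower, with 54.6% and 31.9% of all genes called. DESeq2 called 2 higher and 4 lower members in CD4 SP cells, with 32.4% of all genes called, and 3 higher and 4 lower in CD8 SP cells, with 15.3%. The comparison in CD4 SP cells had 12 to 24 calls and that in CD8 SP cells 8 to 21 when single mice were left out, with 12 without WT replicate 1 (13 without WT replicate 5) and 8 without MHCII-/- replicate 2.

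Cenpf was at 2.01 to 44.0 CPM (median 21.2) in semimature and 0 to 98 CPM (median 18.8) in mature CD4 SP cells (log2 fold change -0.92 ± 0.21, adjusted p = 5.33e-04, edgeR), lower in 8 of 13 mice. Cenpa, the centromeric histone, was at 27.1 to 58.8 CPM (median 36.6) against 47.8 to 80.9 CPM (median 63.1) and lower in 12 of 13 (log2 fold change -0.88 ± 0.09, adjusted p = 2.85e-10). Cenpe, a kinetochore motor, gave -0.85 ± 0.23 (adjusted p = 0.00381, lower in 8 of 13). The ranges of these genes overlapped between stages, and Cenpa had the most even direction over mice. Kif23 ran the other way, at 25.2 to 103 CPM (median 55.1) in semimature and 6.79 to 57.4 CPM (median 27.5) in mature cells, higher in 13 of 13 mice (log2 fold change 1.02 ± 0.09, adjusted p = 7.85e-12). Cks1b was at 36.6 to 139.9 CPM (median 89.7) against 23.2 to 62.4 CPM (median 53.4) and higher in 11 of 13 (log2 fold change 0.80 ± 0.09, adjusted p = 3.34e-09). Mcm2 was higher in 9 of 13 (log2 fold change 0.24 ± 0.09, adjusted p = 0.0261).

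Mki67 was at 1.06 to 90.9 CPM (median 36.2) in semimature and 1.86 to 228 CPM (median 43.1) in mature CD4 SP cells, lower in 9 of 13 mice (log2 fold change -0.66 ± 0.20, adjusted p = 0.00942), and Top2a was lower in 7 of 13 (log2 fold change -0.60 ± 0.20, adjusted p = 0.0149). Ube2c (-0.55 ± 0.19, adjusted p = 0.0189) and Smc4 (-0.49 ± 0.07, 9.15e-07) were called lower. Pcna (-0.04 ± 0.10), Mcm7 (0.07 ± 0.08), Dut (0.01 ± 0.08), Uhrf1 (0.12 ± 0.20), Cks2 (-0.14 ± 0.16) and Nusap1 (-0.34 ± 0.22) did not pass the test. Ccnd2 was slightly lower by the fit (log2 fold change -0.19 ± 0.04, adjusted p = 1.66e-04, lower in 9 of 13) and Ccnd3 was not called (log2 fold change -0.04 ± 0.04, adjusted p = 0.551). The Ccnd2 change was about as large as the shift of all genes without TMM, so its direction rests on the scaling.

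In CD8 SP cells Ccnb2, a mitotic cyclin, was at 0 to 63.3 CPM (median 32.4) in the semimature and 0 to 92.6 CPM (median 48.6) in the mature gate and lower in 8 of 10 mice (log2 fold change -0.79 ± 0.15, adjusted p = 6.96e-05). The mitotic cyclin Ccnb1 (log2 fold change -0.70 ± 0.21, adjusted p = 0.0142, lower in 7 of 10) and Hmmr (log2 fold change -0.66 ± 0.16, adjusted p = 0.00142, lower in 8 of 10) moved in the same direction. Gins2 was at 3.38 to 38.9 CPM (median 25.3) against 0 to 31.6 CPM (median 16.7) and higher in 8 of 10 mice (log2 fold change 0.48 ± 0.15, adjusted p = 0.0166). Mcm2 (log2 fold change 0.41 ± 0.09, adjusted p = 5.86e-04) and Hells (log2 fold change 0.32 ± 0.09, adjusted p = 0.00949) were also higher in 8 of 10. The ranges again overlapped for every member. Mki67 was called lower (log2 fold change -0.35 ± 0.11, adjusted p = 0.0203, lower in 6 of 10) and Top2a was not called (log2 fold change -0.22 ± 0.10, adjusted p = 0.115). Mcm7 (0.31 ± 0.07) and Smc4 (0.22 ± 0.05) were called higher, and Cenpf (-0.44 ± 0.15), Ube2c (-0.41 ± 0.13) and Cks2 (-0.39 ± 0.11) lower. Pcna (0.19 ± 0.09), Dut (0.17 ± 0.07), Uhrf1 (0.04 ± 0.12), Nusap1 (-0.25 ± 0.12), Ccnd2 (0.07 ± 0.04) and Ccnd3 (-0.07 ± 0.05) did not pass the test. Smc4 was thus lower in semimature CD4 SP and higher in semimature CD8 SP cells than in the mature cells of each lineage. Whether the 2 changes differ was not tested.

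CD25+ GITR+ CD4 SP cells, which carried Foxp3, had lower values of nearly all genes of mitosis, though less so in the summed list. In the 6 mice with at least 30 such cells (4 WT and 2 MHCI-/-), 2 of 45 members tested were higher and 26 lower than in other CD4 SP cells of the same mice, where 16% of 7994 genes were called and 8.71% were higher and 7.32% lower. The G2/M list had 22 of 25 lower and 1 higher, with a median log2 fold change of -1.85 against -0.02 over all genes. The S-phase list had 3 of 18 lower (Rrm2, Uhrf1 and Tyms) and none higher, with a median of -0.37. DESeq2 called 0 of the 18, with 4.64% of all genes lower. Wild-type mice only gave 6 (median -0.78), with 5.58% of all genes lower, and the fit without a filter gave 8 of 20, with 6.10%. Without the upper limit on antibody UMIs 17 of 26 G2/M genes were lower (median -1.15), as was 1 of 18 S-phase genes (median -0.32). In that fit 6.67% of all genes were lower. With the CD25 and GITR thresholds set instead at the 99th percentile of wild-type small DP cells, a choice made after seeing the data, 2 of 48 members were higher and 21 lower, with 6.39% of all genes lower. The gate held 345 cells in all, so single genes rest on few UMIs. Summed over the G2/M list, CD25+ GITR+ cells stood at 804 to 2792 CPM (median 911) and other CD4 SP cells of the same mice at 891 to 2752 CPM (median 1461), lower in 5 of 6 mice. The exception was WT replicate 5, the mouse of low depth, with 2792 against 2752 CPM. Smc4 made up much of that sum, and without it the values were 155 to 1432 CPM (median 266) against 527 to 2148 CPM (median 1059), lower in 6 of 6 mice.

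Kif23 was at 0 to 9.59 CPM (median 3.101) in CD25+ GITR+ and 32.4 to 59.1 CPM (median 38.2) in other CD4 SP cells (log2 fold change -3.33 ± 0.39, adjusted p = 4.26e-10, edgeR), on 6 UMIs in the former. Cenpf was at 0 to 10.6 CPM (median 3.19) against 12.7 to 93.4 CPM (median 42.3) (log2 fold change -3.27 ± 0.42, adjusted p = 5.52e-09), also on 6 UMIs. Tpx2, which activates the Aurora A kinase, gave -3.04 ± 0.50 (adjusted p = 3.33e-06). Kif23, Cenpf and Birc5 (survivin, of the chromosomal passenger complex) were lower without overlap between the gates, as were 1.99% of all genes. Mki67 was at 3.53 to 112 CPM (median 6.22) against 25.2 to 226 CPM (median 65.5), lower in 6 of 6 mice (log2 fold change -2.1 ± 0.26, adjusted p = 1.63e-09), and Top2a was lower in 6 of 6 (log2 fold change -1.77 ± 0.18, adjusted p = 5.21e-12). Smc4 went against the rest of its list, at 569 to 1360.2 CPM (median 669) in CD25+ GITR+ cells and 364 to 603 CPM in other CD4 SP cells, higher in 6 of 6 mice (log2 fold change 0.89 ± 0.07, adjusted p = 6.42e-16). Ccnd2 was higher in 5 of 6 mice (log2 fold change 0.35 ± 0.07, adjusted p = 1.71e-04) and Ccnd3 lower in 6 of 6 (log2 fold change -0.43 ± 0.10, adjusted p = 4.31e-04). Ube2c (-2.65 ± 0.30) and Nusap1 (-1.76 ± 0.31) were called lower, as was Uhrf1 (-1.12 ± 0.40), while Pcna (-0.20 ± 0.16), Mcm7 (-0.39 ± 0.14), Dut (-0.36 ± 0.15) and Cks2 (-0.50 ± 0.22) did not pass.

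The central comparison of the study is between CD4-fated and CD8-fated cells at matched points of an inferred order of development. Here they were compared by gate, with family (AND and F5, OT-II and OT-I, MHCI-/- and MHCII-/-) as a covariate. In the study only CD8-fated cells return to a CD69+ DP phase at a later time. The signaled DP gate took every CD69+ DP cell, so early and late cells were not separated in it. Signaled DP cells showed no called member among 46 tested in 6 against 6 mice, where 0.409% of 8560 genes were called. At an unadjusted p under 0.05 there were 11 of 46 members, where 8.45% of all genes passed that threshold, and DESeq2 called 0 (1.19% of all genes). G2/M genes had a median log2 fold change of 0.87 (CD4-fated against CD8-fated), with AND replicate 2 the high mouse. Mki67, at 30.003 to 207 CPM (median 41.4) in CD4-fated and 0 to 84.8 CPM (median 33.4) in CD8-fated signaled cells, gave 0.89 ± 0.56 (adjusted p = 0.797). Top2a (0.87 ± 0.66, 0.859), Pcna (0.48 ± 0.22, 0.590), Ccnd2 (-1.1 ± 0.39, 0.393) and Ccnd3 (0.37 ± 0.18, 0.610) did not pass either. Of the genes called over all features, 34.3% were higher, or 46.4% without TMM.

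In SP cells, where CD4-fated mice were taken in the CD4 SP gates and CD8-fated mice in the CD8 SP gates, most members were lower in the CD4 lineage. In semimature cells 29 of 42 members tested were lower and none higher (6 against 6 mice), with 4.94% of 7524 genes lower, 4.72% higher and 9.66% called in all. In mature cells 37 of 49 were lower and none higher (6 against 5 mice), with 4.44% of 8785 genes lower, 3.81% higher and 8.25% called in all. F5 replicate 2 had 16 mature CD8 SP cells and was left out of the latter. The S-phase list had 17 of 18 lower in semimature cells (median log2 fold change -1.81) and 19 of 20 in mature cells (median -1.41). The G2/M list had 12 of 22 lower (median -2.38) and 18 of 27 lower (median -1.22). The semimature G2/M count moved with the gates and filters. It was 0 of 22 (median -2.21) with gates 0.3 log2 units higher, where 4.27% of all genes were lower. Without an upper limit on antibody UMIs it was 21 of 24 (median -2.48), where 5.44% of all genes were lower. The median over all genes was 0.01 and 0.00. The number of calls moved with single mice. In semimature cells it ranged from 14 to 42 when each mouse was left out, with 14 without AND replicate 1, OT-II replicate 1 or OT-I replicate 1 and 15 without AND replicate 2. In mature cells it ranged from 22 to 41, with 22 without MHCI-/- replicate 1 or MHCII-/- replicate 2.

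Mcm6 did not overlap between the lineages. In mature cells it was at 36.2 and 25.5 CPM in the AND mice, 36.2 and 58.2 in the OT-II mice and 41.7 and 42.8 in the MHCI-/- mice. It was at 79.8 CPM in F5 replicate 1, 165 and 208 in the OT-I mice and 142 and 148 in the MHCII-/- mice (log2 fold change -1.74 ± 0.18, adjusted p = 1.54e-05, edgeR). Each CD8-fated mouse lay above each CD4-fated mouse. The same held in mature cells for Ccne1, Mcm4, Cdt1, Pcna, Fen1 and Rrm1, and in semimature cells for Mcm6 (log2 fold change -1.96 ± 0.25, adjusted p = 1.83e-04), Cdt1 and Ccnb2. These are 7 and 3 members, where 2.63% of all genes in mature and 1.40% in semimature cells were lower without overlap. Cdt1 overlaps Gm20388 on the same strand, so reads could have been split between them and its values are uncertain. Pcna, at 31.7 to 77.8 CPM (median 59.5) against 79.8 to 135 CPM (median 111) in mature cells, was 1.66-fold lower (log2 fold change -0.73 ± 0.21, adjusted p = 0.0417).

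Uhrf1 had the largest fitted change in mature cells, at 0 to 13.7 CPM (median 4.63) in CD4-fated and 0 to 86.0 CPM (median 45.15) in CD8-fated mice (log2 fold change -2.18 ± 0.38, adjusted p = 0.00182). Hells was at 4.18 to 58.2 CPM (median 14.4) against 5.32 to 154 CPM (median 67.2) (log2 fold change -1.80 ± 0.31, adjusted p = 0.00164) and Cdc6 gave -1.91 ± 0.49 (adjusted p = 0.0235). Mki67 was at 3.15 and 1.86 CPM in the AND mice, 34.0 and 72.8 in the OT-II mice and 36.1 and 43.1 in the MHCI-/- mice. In mature CD8 SP cells it was at 0 CPM in F5 replicate 1, 303 and 288 in the OT-I mice and 80.9 and 96.9 in the MHCII-/- mice (log2 fold change -1.63 ± 0.28, adjusted p = 0.00157). The sum of F5 replicate 1 held 37 cells, in which 1 UMI is worth 5.32 CPM, so its rank against the AND mice is not known. Top2a gave -1.63 ± 0.49 (adjusted p = 0.0496), close to the threshold. In the plot of 4 members F5 replicate 1 is the lowest CD8-fated mouse in each panel.

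**Figure D5:**
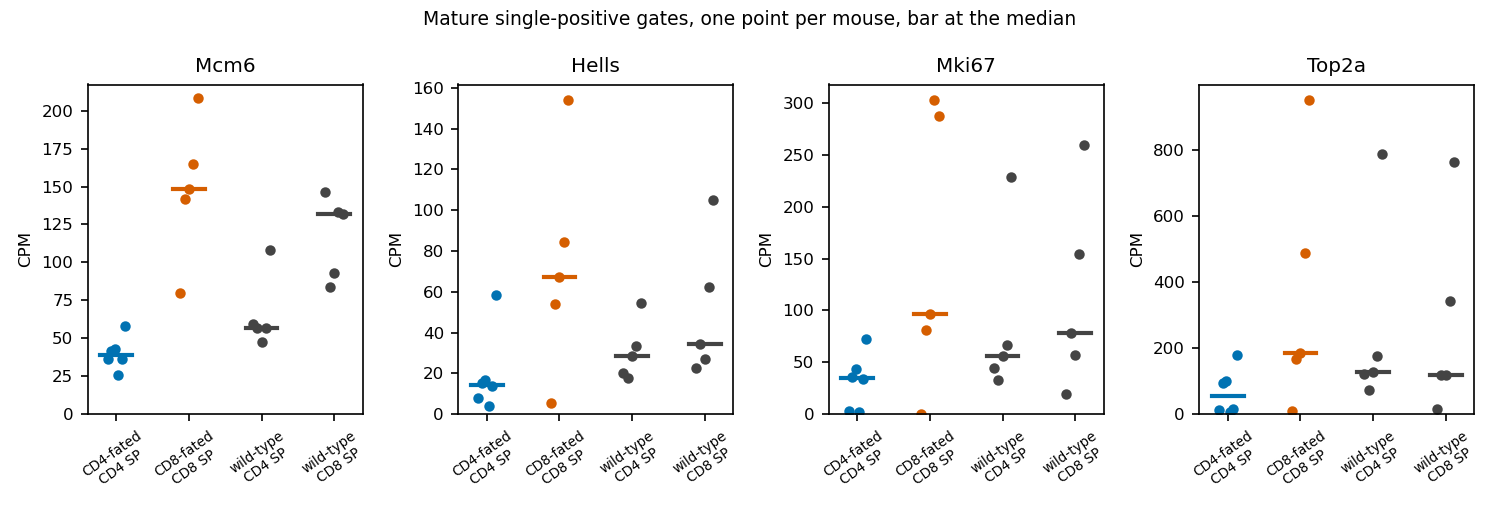
CPM of Mcm6, Hells, Mki67 and Top2a in mature SP cells, 1 panel per gene, in the CD4 SP gate of CD4-fated mice, the CD8 SP gate of CD8-fated mice and both gates of the wild-type mice; points are mice and bars medians. Mcm6 separates CD4-fated (25.5 to 58.2 CPM) from CD8-fated mice (79.8 to 208 CPM), whereas for Mki67 F5 replicate 1 is plotted at 0 CPM, where 1 UMI of its 37 cells is worth 5.32 CPM.

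In semimature cells Mki67 was at 1.06 to 56.5 CPM (median 10.9) in CD4-fated and 1.69 to 436 CPM (median 130.0) in CD8-fated mice (log2 fold change -3.03 ± 0.84, adjusted p = 0.0343). Cenpf gave -2.87 ± 0.84 (0.0437) and Birc5 -2.74 ± 0.74 (0.0306), while Top2a (-2.91 ± 0.88, 0.0504) and Ube2c (-3.07 ± 1.01, 0.0685) did not pass. Standard errors of 0.74 to 1.01 for these genes went with the spread among CD8-fated mice, whose summed G2/M list ran from 896 CPM (F5 replicate 1) to 7735 CPM (F5 replicate 2). The ISP gate, also CD4- CD8+ and CD24 high, was set apart from the semimature CD8 SP gate by low TCRB. Its summed G2/M list had a median of 6709.7 CPM. Whether ISP cells entered the semimature gate was not tested. Among S-phase genes, Mcm7 (-1.32 ± 0.27), Dut (-1.47 ± 0.33), Uhrf1 (-1.88 ± 0.45) and Pcna (-0.93 ± 0.28) were called lower. In mature cells Mcm7 (-1.16 ± 0.27), Dut (-0.78 ± 0.22), Cks2 (-1.52 ± 0.19), Cenpf (-1.41 ± 0.32) and Nusap1 (-1.45 ± 0.38) were lower, and Smc4 (-0.33 ± 0.20) was not called. The D-type cyclins did not follow. Ccnd2 gave 0.14 ± 0.23 and 0.24 ± 0.24 in semimature and mature cells (adjusted p = 0.786 and 0.628), and Ccnd3 0.17 ± 0.15 and 0.02 ± 0.16 (0.565 and 0.967).

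The wild-type mice hold both lineages in the same thymus, and their own CD4 and CD8 SP gates were compared with mouse as a block, a comparison added after seeing the data. In semimature cells 28 of 38 members tested were lower and 2 higher in CD4 than in CD8 SP cells, with 10.9% of all genes lower and 8.84% higher. In mature cells 22 of 44 were lower and 2 higher, with 10.5% of all genes lower and 9.73% higher. The list medians were -0.82 (S phase) and -0.66 (G2/M) in semimature and -0.56 and -0.46 in mature cells, smaller than those of the CD4-fated and CD8-fated mice, a difference that was not tested. Mcm6 gave -1.22 ± 0.12, adjusted p = 7.85e-11 in semimature and -0.90 ± 0.12, adjusted p = 3.42e-07 in mature cells. Mki67 gave -1.21 ± 0.21, adjusted p = 2.32e-05 and -0.57 ± 0.15, adjusted p = 0.00486. Mature wild-type Mki67 was at 44.9, 32.9, 56.4, 67.1 and 228 CPM in CD4 SP cells of the 5 mice and at 19.7, 77.9, 56.9, 155 and 259 CPM in CD8 SP cells of the same mice, in the same order. It was thus higher in the CD8 gate of 4 of the 5 mice. Smc4 was called lower in semimature and higher in mature CD4 SP cells (-0.54 ± 0.07 and 0.43 ± 0.06), and Ccnd3 was called higher in both (0.21 ± 0.07 and 0.36 ± 0.07).

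Over all cells of a mouse, genotypes of a family differed in few members. These sums also differed in their mix of cells. Small DP cells were 3.2 and 10.2% of the cells of the AND mice and 29.9 and 26.5% of those of the F5 mice. Other CD4 SP cells were 59.6 and 54.3% against 0.247 and 0.381%. The part of this mix in the differences was not tested. In AND against F5 mice (2 against 2, in 1 fit of 17 mice), Smc4 was the member called, where 3.21% of 13242 genes were called, 2.58% higher and 0.627% lower. DESeq2 called 2 members and 5.52% of all genes. In CPM, the AND mice stood at 288 and 354 and the F5 mice at 697 and 956, without overlap (log2 fold change -1.30 ± 0.25, adjusted p = 0.0117, edgeR). Ccnd2 stood at 324 and 186 CPM for AND, while F5 had 106 and 58.7 CPM (log2 fold change 1.71 ± 0.43, adjusted p = 0.0501) and passed once the replicate number was a block, when 2 members were called (1.71 ± 0.33, adjusted p = 0.0157 for Ccnd2, -1.29 ± 0.21, adjusted p = 0.00653 for Smc4). Without AND replicate 1 or F5 replicate 2 no member was called. Mki67 gave -0.77 ± 0.58, Top2a -0.60 ± 0.71, Pcna -0.22 ± 0.43 and Ccnd3 0.06 ± 0.22, all short of the threshold.

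OT-II against OT-I mice showed no called member, where 4.49% of genes were called, 2.79% higher and 1.70% lower (62.2% of them higher, or 72.5% without TMM). At an unadjusted p under 0.05 there was 1 member (Ccne1), against 15.3% of all genes, and DESeq2 called 0 (7.20% of all genes). Mki67 gave 0.00 ± 0.58, Top2a -0.19 ± 0.71, Pcna 0.01 ± 0.43, Ccnd2 -0.75 ± 0.42 and Ccnd3 0.34 ± 0.22 on the log2 scale. MHCI-/- against MHCII-/- mice also showed none, where 0.710% of genes were called (0.453% higher and 0.257% lower), with 0 members at an unadjusted p under 0.05 (8.69% of all genes) and 0 by DESeq2 (2.31%). Mki67 gave -0.51 ± 0.58, Top2a -0.38 ± 0.71, Pcna -0.03 ± 0.43, Ccnd2 0.11 ± 0.42 and Ccnd3 -0.16 ± 0.22. Without overlap of the mice, 14 of 49 members were lower and 0 higher in MHCI-/- than in MHCII-/- mice, where 32.6% of all genes were lower and 25.3% higher in that way, with a median log2 fold change of -0.36 for S phase and -0.38 for G2/M. In OT-II against OT-I mice 4 members were higher (Ccnd3, Cenpf, Bub1b and Smc4) and 4 lower (Ccne1, Mcm3, Mcm4 and Ccnb1) without overlap, against 22.3% and 12.3% of all genes. In AND against F5 mice 1 was higher (Ccnd2) and 1 lower (Smc4), against 16.2% and 21.4%.

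Of 55 further genes of the pathway, 50 were tested in DN cells, and 23 were higher and 12 lower than in small DP cells, where 27.3% of all genes were higher and 28.6% lower. Myc, which drives growth and cycle entry, was higher by 3.25 ± 0.33 (SE) and Cdk6, the kinase of the D-type cyclins, by 2.18 ± 0.22, while the inhibitor Cdkn2d gave -1.98 ± 0.12 and the antiproliferative gene Btg2 -1.86 ± 0.15. In DP blasts, with 34.5% of all genes higher and 42.2% lower, 37 of 49 were higher and 7 lower, led by Myc (2.41 ± 0.15) and the checkpoint kinase Chek1 (2.36 ± 0.10), with the antiproliferative Btg1 (-1.44 ± 0.09) and Btg2 (-1.28 ± 0.10) lower. In signaled DP cells 5 of 48 were higher and 35 lower, against 26.8% and 28.5% of all genes. Myc was higher there too (1.5 ± 0.20, adjusted p = 8.17e-07), beside Ccnd2 among the members, whereas the phosphatase Cdc25c (-3.0 ± 0.33) and the repressor E2f8 (-2.70 ± 0.34) were lower.

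Between semimature and mature CD4 SP cells 7 of 40 of these genes were higher and 9 lower, where 18.6% of all genes were higher and 19.2% lower, with the mitotic phosphatase Cdc25b at -1.79 ± 0.16 and the activator E2f2 at -1.39 ± 0.17. In CD8 SP cells 7 of 33 were higher and 3 lower (9.58% and 11.5% of all genes), and Cdc25b (-1.1 ± 0.19) and E2f2 (-0.65 ± 0.17) were again among the lower genes. In CD25+ GITR+ cells 4 of 37 were higher (Cdk6 at 1.04 ± 0.18) and 5 lower (Cdkn2c, an inhibitor of Cdk4 and Cdk6, at -1.67 ± 0.52), against 8.71% and 7.32% of all genes. CD4-fated against CD8-fated cells gave none of 38 in signaled DP cells. In semimature cells 1 of 36 was higher and 9 lower (4.72% and 4.94% of all genes), and in mature cells 2 of 42 higher and 10 lower (3.81% and 4.44%). Lig1, the ligase that joins Okazaki fragments, was lower at both SP stages (-2.31 ± 0.52 and -1.62 ± 0.41), as was the helicase factor Cdc45 (-1.95 ± 0.44 and -1.84 ± 0.35). OT-II against OT-I mice differed in 2 of 53 (Cdkn1a, an inhibitor of cyclin-dependent kinases, at 2.46 ± 0.61 and Tfdp2, a partner of E2F, at 0.72 ± 0.15), where 4.49% of all genes were called, and the other comparisons of genotypes in none.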

How the data were processed

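Thymocytes of 17 mice were analysed as UMI count matrices (RNA and 111 antibodies) for 19 lanes, which the authors deposited as unnormalised counts per gene and cell; per the submitters' processing notes they used Cell Ranger 3.1.0 with mm10 (GRCm38). Cells were kept with at least 200 genes, at most 15% mitochondrial UMIs, 1000 to 10000 antibody UMIs and at least 70 antibodies detected, and doublets were called at 0.8% per 1000 cells. Stages were gated on antibodies alone (Otsu thresholds in scikit-image 0.26.0, CD24 and CD62L within TCRB-high SP cells). CD69 in the third experiment took the mean threshold of the other 2 experiments, DN lineage thresholds lay at the 99.5th percentile, and those of CD25 (4.2 log2 units) and GITR (7) were placed by eye on the antibody values. The bar of 5 UMIs for shares of cells was added after the shares at 2 UMIs were seen.

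UMIs were summed per mouse and gate (at least 30 cells) and tested with edgeR 4.0.16 (R 4.3.3) by its quasi-likelihood test with TMM scaling, filterByExpr and Benjamini-Hochberg adjustment over all genes. Stage comparisons had mouse as a block, lineage comparisons had family as a covariate, and genotypes were compared in 1 fit of 17 mice. SE values were derived from the fold change and F statistic. Mice are the replicates. The members and gene lists were chosen with earlier results of these data known. Named genes were Mki67, Top2a, Pcna, Ccnd2, a leading gene of each role and the 3 with the largest called change each way. Replicate numbers went together in the data for OT-II and OT-I (correlation of deviations 0.62). They did so weakly for AND and F5 (0.12) and for MHCI-/- and MHCII-/- (0.11). For AND and F5 the replicate number was also the experiment, which it was not in the other pairs. Alternatives were DESeq2 1.42.0, library size scaling, no filter, shifted gates (0.3 log2 units), doublets kept, no upper limit on antibody UMIs, wild-type mice only, no family covariate, a replicate block and leaving out each mouse. The code was tested on simulated data.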

Additional observations from a re-analysis of the deposited data

Results flagged for a closer look

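Of 108 groups of 4 to 6 mice, 13 (12%) held a mouse far from the others by Dixon's criterion. Its rate by chance, about 1 in 20, assumes independent groups of normally distributed values. These groups reused the same mice and in part the same cells, so the rates cannot be compared. Values are CPM, with the nearest other mouse of the group after each. WT replicate 5, the mouse of low depth, was high in 6 groups. Its Ccnd2 stood at 54.7 in DP blasts (11.5), 70.1 in small DP cells (23.1) and 1441 in other CD4 SP cells (791). Its S-phase list stood at 1435 in signaled DP cells (624) and 1194 in mature CD4 SP cells (783), and its G2/M list at 2792 in CD25+ GITR+ cells (1113). Among CD4-fated mice, Ccnd2 of OT-II replicate 2 stood at 48.1 in DP blasts (9.74) and 56.8 in small DP cells (24.1), the G2/M list of AND replicate 2 at 4949.9 in signaled DP cells (1548) and Ccnd3 of AND replicate 1 at 468 in mature CD4 SP cells (296). Among CD8-fated mice, Ccnd3 of F5 replicate 1 stood at 562 in signaled DP (354) and 574 in mature CD8 SP cells (248.95), and Ccnd2 of OT-I replicate 2 at 1301 in mature CD8 SP cells (667). The part of depth or of single libraries in these values was not tested.

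In 2 of 441 contrasts between groups of mice, both in DN cells with 3 CD4-fated and 3 wild-type mice, every mouse of one group moved one way and every mouse of the other the opposite way. WT replicate 3 was sorted for CD5+TCRB+ cells, whereas the other mice of these groups were unsorted. From small DP to DN cells Ccnb2 changed by a median of 38.1 CPM in CD4-fated and -39.3 CPM in wild-type mice, and Cenpe by 22.5 and -60.3 CPM. Of all 9538 genes tested in DN cells, 1.42% showed such opposite signs between these mice, beside 2 of 49 members. The difference was not tested.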

How the results depend on the processing

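Most named values kept their direction and call, but counts of called members in SP cells moved with the method and with single mice. In parentheses stands the share of all genes called in the same fit, which is not given for the fits that leave out a mouse. With wild-type mice only, 13 members were called in DN cells (32.8%) and 6 between semimature and mature CD8 SP cells (12.6%). DESeq2 gave 6 in CD4 SP cells (32.4%), 7 in CD8 SP cells (15.3%) and 2 between AND and F5 (5.52%). Gates 0.3 log2 units higher gave 10 in CD8 SP cells (20.4%) and 15 between lineages in semimature cells (8.57%, with 0 of 22 G2/M genes lower in place of 12), and lower gates gave 25 in CD8 SP cells (19.8%). Without the filter there were 45 between lineages in semimature cells (8.58%) and 2 between AND and F5 (2.25%), and the wild-type gates gave 24 in mature cells (20.3%). A replicate block gave 2 members between AND and F5 (4.04%), 31 between lineages in semimature (13.8%), 41 in mature (15.9%) and 0 in signaled DP cells (1.07%), and 0 between OT-II and OT-I (5.86%) and between MHCI-/- and MHCII-/- (1.20%). Over all genes the block took the calls from 35 to 92 (signaled), from 725 to 1397 (mature) and from 94 to 159 (MHCI-/- and MHCII-/-). Leaving out each mouse gave 17 to 21 calls in DN cells, 48 to 48 in blasts, 47 to 48 in signaled DP cells, 12 to 24 in CD4 SP, 8 to 21 in CD8 SP and 22 to 34 in CD25+ GITR+ cells. Between lineages it gave 0 to 1 (1 without AND replicate 1), 14 to 42 and 22 to 41 (signaled, semimature, mature), and between genotypes 0 to 2 (AND and F5), 0 to 0 (OT-II and OT-I) and 0 to 0 (MHCI-/- and MHCII-/-). Without the upper limit on antibody UMIs 17 of 26 G2/M genes were lower in CD25+ GITR+ cells (15.4%), in place of 22 of 25. The cause was not tested.

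Of 186 values of genes named by the rule, 50 changed sign under some alternative, and 0 of these were called in the main comparison. Library size scaling gave Mki67 -0.11 in DN cells, Pcna 0.13 and Ccnd3 0.13 in CD4 SP cells (Ccnd3 called higher, adjusted p = 0.00983, but lower with wild-type mice only, -0.15, adjusted p = 0.0437), Ccnd3 0.0587 in CD8 SP cells, -0.0382 between lineages in mature cells and -0.0048 between AND and F5. Higher gates gave Mki67 -0.0476 in DN cells, Ccnd2 -0.0039 in CD8 SP cells and Pcna 0.0114 in CD25+ GITR+ cells, and lower gates Top2a 0.11 in DN cells. Wild-type mice gave Mki67 -0.27 in DN cells, Ccnd2 -0.0454 in CD8 SP cells and Ccnd2 -0.0498 between their own semimature gates, and keeping doublets Pcna -0.0023 between OT-II and OT-I. Leaving out each mouse gave -0.16 to 0.27 (Mki67) and -0.41 to 0.0659 (Top2a) in DN cells, -0.20 to 0.0257 (Pcna, CD4 SP), -0.0271 to 0.30 (Ccnd2, lineages, semimature) and -0.0143 to 0.17 (Ccnd3, lineages, mature). Between AND and F5 it gave -1.52 to 0.78 (Mki67), -1.36 to 0.997 (Top2a), -0.77 to 0.58 (Pcna) and -0.0831 to 0.19 (Ccnd3). Between OT-II and OT-I it gave -0.0886 to 0.0538 (Mki67), -0.69 to 0.38 (Top2a) and -0.31 to 0.28 (Pcna), and between MHCI-/- and MHCII-/- -1.02 to 0.0518 (Top2a) and -0.48 to 0.30 (Pcna).

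For the leading genes of each role, the wild-type SP gates gave Smc4 0.43 between lineages in mature cells (adjusted p = 1.25e-06, against -0.33, not called, in the fated mice), and wild-type mice only gave Cks2 -0.15 in DN cells and Uhrf1 -0.23 in CD4 SP cells. In CD4 SP cells Dut gave -0.11 with DESeq2, -0.0129 without the filter, -0.022 without the antibody limit and -0.0288 with higher gates, Uhrf1 -0.0254 with doublets kept and Cks2 0.0414 with library size scaling. Uhrf1 in CD8 SP cells gave -0.0041 without the filter and -0.0011 with doublets kept, and Mcm7 between lineages in signaled DP cells -0.0467 with higher and -0.0747 with lower gates. Dut gave 0.14 between AND and F5 with the replicate block, and between OT-II and OT-I library size scaling gave Cks2 0.0194 and Ube2c 0.0865, and keeping doublets Ube2c 0.0148. Leaving out each mouse gave -0.013 to 0.14 (Mcm7), -0.11 to 0.0483 (Dut), -0.12 to 0.26 (Uhrf1) and -0.26 to 0.0098 (Cks2) in CD4 SP cells, -0.0478 to 0.18 (Uhrf1) in CD8 SP cells, and -0.14 to 0.21 (Mcm7), -0.0536 to 1.21 (Cenpf) and -0.23 to 0.12 (Smc4) between lineages in signaled DP cells. Between AND and F5 it gave -1.65 to 1.08 (Ccne2), -0.74 to 0.47 (Mcm7), -0.81 to 1.04 (Dut), -0.97 to 0.62 (Uhrf1), -1.04 to 0.70 (Cks2), -1.17 to 0.92 (Ube2c), -1.65 to 0.47 (Cenpf) and -1.28 to 0.91 (Nusap1). Between OT-II and OT-I it gave -0.65 to 1.70 (Ccne2), -1.02 to 0.92 (Mcm7), -0.45 to 0.17 (Dut), -0.00084 to 0.51 (Uhrf1), -0.20 to 0.0326 (Cks2), -0.62 to 0.54 (Ube2c) and -0.67 to 0.55 (Nusap1). Between MHCI-/- and MHCII-/- it gave -1.20 to 0.16 (Ccne2), -0.69 to 0.20 (Dut), -0.89 to 0.0583 (Uhrf1), -1.05 to 0.0727 (Cks2), -0.98 to 0.0584 (Ube2c), -0.93 to 0.22 (Nusap1) and -0.16 to 0.21 (Smc4).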
